A study of Mus musculus with 48 samples.

Results

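Ppp1r17 neurons are a small set of hypothalamic neurons picked out by transcripts of *Ppp1r17*. A cell was taken as a member if it held at least 2 unique molecular identifiers (UMIs, each standing for 1 captured transcript) of *Ppp1r17*, none of *Hmx2*, *Hmx3*, *Foxb1* or *Tfap2b*, and at least 3 of the 6 neuron genes *Stmn2*, *Tubb3*, *Snap25*, *Syt1*, *Elavl4* and *Rbfox3*. The members were therefore selected on measured values of these 11 genes, which are described but not tested. The rule found 190 cells of 14121 (1.35%), or 1.71% of the 11122 cells with at least 3 neuron genes, which are called neurons throughout. Of these members 125 came from control and 65 from *Eed-cKO* embryos.

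*Ppp1r17* (chr6:56017497-56032689, GRCm38) encodes a small neuronal inhibitor of protein phosphatases 1 and 2A that is a substrate of cGMP-dependent protein kinase, and it is best known from cerebellar Purkinje cells and from neurons of the dorsomedial hypothalamus. *Eed* encodes a core subunit of Polycomb Repressive Complex 2 (PRC2), which places the repressive mark H3K27me3 and keeps developmental regulators such as the Hox genes silent in the anterior brain. Hypothalamic neurons are commonly told apart by the transcription factors they keep and by the fast transmitters and neuropeptides they release.

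The hypothalamus of mouse embryos at E18.5 was cut into pieces, dissociated and profiled by droplet-based 3′ single-cell RNA-seq (ddSEQ) in 48 libraries from 15 embryos. Control embryos were Eed fl/fl (22 libraries of 6 embryos) and *Eed-cKO* embryos were Eed fl/fl with Sox1-Cre/+ (26 libraries of 9 embryos), so that both groups carry the floxed *Eed* alleles and differ in the Cre allele, which acts across the early central nervous system and not in the hypothalamus alone. Both groups held both sexes, in unequal proportions, and the embryo was the replicate. Library names begin with a number that some embryos share, with 4 such numbers in control, 6 in *Eed-cKO* and 0 in both. The labels do not say what it stands for, and if it marks a litter or a batch, that and genotype cannot be told apart.

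The embryos gave 658175 to 7487417 UMIs each. The median depth of a member was 5664 UMIs (control) or 5481 UMIs (*Eed-cKO*), and it was 5070.5 or 4683 UMIs in the other neurons, which are the neurons with none of *Ppp1r17* and of the 4 excluded genes (4448 in control, 3316 in *Eed-cKO*). Members were present in 22 of 22 control libraries and 22 of 26 *Eed-cKO* libraries. The 6 control embryos held 6 to 31 members each, and 6 of the *Eed-cKO* embryos held 6 to 13, while the other 3 held 0, 0 and 2. Tests of expression used the embryos with at least 5 members, 6 in each group, with 125 and 63 cells. Their summed counts were shallow, at 26982 to 266750 UMIs per control embryo and 24633 to 89727 per *Eed-cKO* embryo. The largest library, from control embryo 5, held 1207 cells against 163 to 465 in the others, with a median of 2919 UMIs per cell against 4698.5, and gave 1 member among 1018 neurons. Of 14019 cell barcodes 101 were found in more than 1 library, and 4 members carried such a barcode. A 3′ count of the targeted gene does not show whether a transcript lacks the deleted exons, so that its level is a limited check of the labels. In other neurons *Eed* ranged from 26.7 to 35.1 UMIs per 1000000 UMIs (CPM) over the 6 control embryos and from 19 to 25.9 over the 6 *Eed-cKO* embryos, with no overlap. Members held 25 UMIs of *Eed* in control and 3 in *Eed-cKO*, a ratio of 3.92 with a 95% counting interval of 1.2 to 20.3, and the difference was not called across embryos (edgeR quasi-likelihood test, adjusted p = 0.594). Here and below, counting intervals cover counting error only.

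The number of *Ppp1r17* transcripts per member was low. Exactly 2 UMIs were found in 70 control and 41 *Eed-cKO* members, and 3 or more in 55 and 24, with a highest value of 12 and 10. Just outside the threshold, 270 control and 207 *Eed-cKO* neurons held 1 UMI. The members carried 355 of the 802 *Ppp1r17* UMIs found in control cells, and 171 of 577 in *Eed-cKO*. Cells called non-neural held at least 3 genes and 6 UMIs of 1 list, of endothelial cells, pericytes, fibroblasts or microglia. Of these a *Ppp1r17* UMI was held by 1 of 319 in control and by 14 of 529 in *Eed-cKO*, and at least 2 UMIs by 0 and 2. These non-neural cells had a median of 4138 and 4419 UMIs and serve below as a rough background for free RNA. Those that also pass the neuron rule were not left out, so that their shares can include RNA of neurons caught with them. Before the exclusion genes were applied, 163 control and 107 *Eed-cKO* neurons passed. *Foxb1* was present in 17 and 19 of these, *Hmx2* in 16 and 11, *Hmx3* in 16 and 12 and *Tfap2b* in 0 and 7, and together the 4 genes removed 38 and 42 cells.

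The proposed markers gave a mixed picture. *Nhlh2*, a basic helix-loop-helix factor of young neurons, ranged over control embryos from 58.0 to 266 CPM, with a median of 141, in members and from 61.0 to 97.5, with a median of 88.7, in other neurons. It was higher in members by 0.75 ± 0.20 on the log2 scale (SE) in control (edgeR quasi-likelihood test with Benjamini-Hochberg adjustment, adjusted p = 0.0119, 6 embryos) and by 1.18 ± 0.23 in *Eed-cKO* (adjusted p = 1.2e-04), where the median was 170 CPM in members and 91.6 in other neurons. The *Eed-cKO* call was lost without 1 embryo (edgeR adjusted p = 0.355) and the control call without each of 2. *Insm1*, a zinc-finger factor of neuronal and endocrine differentiation, was higher in control members by 0.98 ± 0.26 (edgeR adjusted p = 0.0102), and in *Eed-cKO* the difference of 0.60 ± 0.33 was not called (edgeR adjusted p = 0.530). The LIM-homeodomain gene *Isl1* was not called: the log2 difference was -0.41 for control (edgeR adjusted p = 0.296) and 0.39 for *Eed-cKO* (edgeR adjusted p = 0.465). *Fndc9* was not called either, at 0.24 (edgeR adjusted p = 0.857) and 1.01 (edgeR adjusted p = 0.430). Of the 4 markers that the rule did not use, 2 therefore rose in control members and 1 in *Eed-cKO* members, and the cells are named here by *Ppp1r17* alone. By DESeq2 the *Nhlh2* and *Insm1* differences were not called in either group, with adjusted p of 0.0743 and 0.327 in control.

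The detection of other genes changed with the number of *Ppp1r17* UMIs in the cell. *Nkx2-1*, a homeodomain gene of the ventral hypothalamus that the rule did not use, was detected in 19% of control neurons with 0 UMIs of *Ppp1r17*, in 33.3% with 1, in 47.1% with 2 and in 54.5% with 3 or more. In *Eed-cKO* the shares were 29.8%, 51.2%, 58.5% and 83.3%, the last over 24 cells. The shares in non-neural cells were 6.90% and 16.6%. Between *Eed-cKO* members and other neurons, edgeR did not call *Nkx2-1*. *Cck*, the precursor of the neuropeptide cholecystokinin, was detected in 6.09%, 9.63%, 20% and 29.1% of control neurons in that order, against 3.76% of non-neural cells. In *Eed-cKO* the *Cck* shares were 10.1%, 15.5%, 9.76% and 33.3%, against 9.45% of non-neural cells. When each cell was thinned to 2000 UMIs, *Nkx2-1* was detected in 31.5% of control members and 11.3% of other control neurons, and *Cck* in 23 of 124 and 3.73%. Thinning left out 1 of 125 control members and 586 of 4448 other neurons. In thinned *Eed-cKO* cells *Nkx2-1* was detected in 45.2% of members and 19.5% of other neurons, and *Cck* in 12.9% and 6.73%. *Isl1* did not follow this order in control, at 25.7%, 31.9%, 24.3% and 16.4%. *Nhlh2* was highest at 2 UMIs, with shares of 19.9%, 27.4%, 37.1% and 16.4%. The cells of a bin share embryos and libraries, and these shares are a description.

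**Figure D1:**
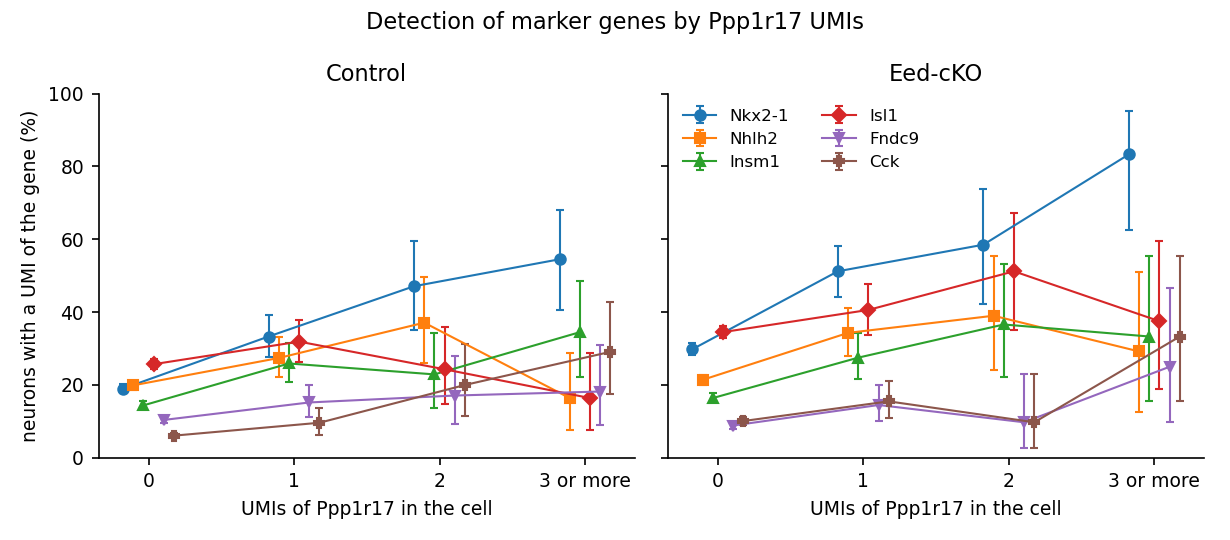
Share of neurons with at least 1 UMI of 6 genes (y axis, %) against the number of *Ppp1r17* UMIs in the cell (x axis), for control (left) and *Eed-cKO* (right). Points are shares over all cells of a bin and bars are exact 95% binomial intervals for counting error; the *Nkx2-1* share went from 19% to 54.5% in control and from 29.8% to 83.3% in *Eed-cKO*.

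Ppp1r17 neurons made up a smaller share of all neurons in *Eed-cKO* embryos, counting neurons that the exclusion genes bar from membership. In control the share was 0.438% in the lowest, 2.43% in the median and 3.47% in the highest of 6 embryos. In *Eed-cKO* it was 0% in the lowest, 1.36% in the median and 1.67% in the highest of 9 embryos. The lowest shares came from the embryos with the fewest neurons. *Eed-cKO* embryos 2, 9 and 8 (0%, 0% and 0.519%) held 151, 386 and 385 neurons, and every other embryo held at least 576. Each embryo was weighted equally, and the difference without these embryos together was not tested. The groups overlapped, because control embryos 4 (1.39%) and 5 (0.438%) lay within the *Eed-cKO* range while the other 4 control embryos lay above it. The mean share was 2.24% ± 1.16 (SD, n = 6) in control and 1.03% ± 0.680 (n = 9) in *Eed-cKO*, a difference of -1.22 percentage points (two-sided exact permutation test over embryos, 5005 splits, p = 0.0244). Without the largest library the difference was -1.38 points (exact permutation p = 0.00519). It was not past the threshold without control embryo 1 (-1.01 points, exact permutation p = 0.0669), without control embryo 6 (-0.974, exact permutation p = 0.0684) or without the exclusion genes (-1.15, exact permutation p = 0.111). After thinning each cell to 2000 UMIs the difference was -0.329 points (exact permutation p = 0.05). The barred neurons were unequal between genotypes. Of 5898 control neurons, those without an exclusion gene were 4448 with 0, 270 with 1 and 125 with 2 or more *Ppp1r17* UMIs. Of 5224 *Eed-cKO* neurons they were 3316, 207 and 65. A larger part of *Eed-cKO* neurons could therefore not be members, and a share over the others was not tested. The rule asks for 2 UMIs of 1 gene, so that fewer such cells and fewer *Ppp1r17* transcripts per cell cannot be told apart.

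**Figure D2:**
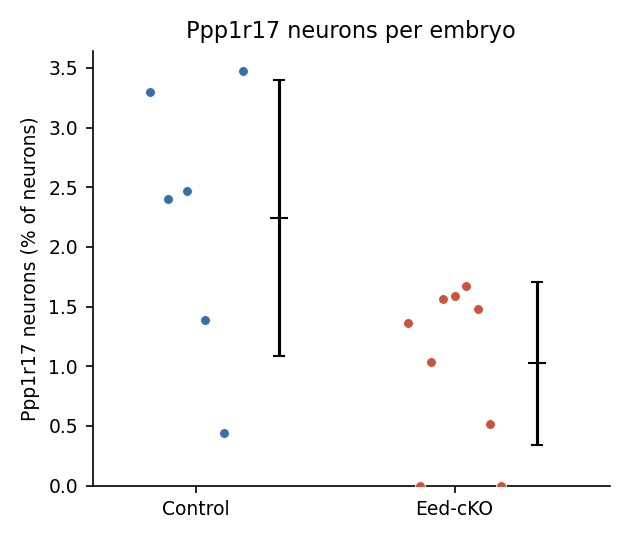
Ppp1r17 neurons as a percentage of neurons (y axis) in each embryo of the control and *Eed-cKO* groups (x axis). Points are embryos and the bars give the mean ± SD; 4 of 6 control embryos lie above all 9 *Eed-cKO* embryos, whose highest value is 1.67%.

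To describe these neurons in the control hypothalamus, their summed counts were compared with those of the other neurons of the same 6 embryos. Control members held more *Cck* and *Nkx2-1* and less *Gad1* and *Gad2*, the GABA-synthesis genes. The comparison called 372 of 14184 genes (2.62%), with 86 higher (0.606%) and 286 lower (2.02%), at an adjusted p below 0.05. The median log2 difference of all genes was -0.14, and each difference is to be read against that shift. Scaling by library size alone in place of the trimmed mean of M-values (TMM) gave 140 higher and 161 lower. Since members were selected for *Ppp1r17*, these are differences between cells chosen by 1 gene and the rest, and the 11 genes of the rule were left out.

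Cholecystokinin was the leading peptide. *Cck* (chr9:121489824-121495694, GRCm38) stood at 58.0 to 535 CPM, with a median of 288, in control members and at 19.5 to 89.0, with a median of 29.0, in other neurons. Only the lowest member value, in control embryo 5, overlapped with the other neurons. The difference was 3.11 ± 0.19 on the log2 scale (edgeR adjusted p = 1.73e-58), and it was called under 17 of 17 alternatives. The 235 *Cck* UMIs came from 30 of 125 members, and no cell held more than 30 of them. *Grp*, the precursor of gastrin-releasing peptide, ranged from 26.6 to 366 CPM in members, with a median of 54.1, and from 11.4 to 20.1 in other neurons. The groups did not overlap for *Grp*, and the difference was 2.43 ± 0.33 (edgeR adjusted p = 1.33e-10), with 73 UMIs in 15 cells. *Crh*, which encodes corticotropin-releasing hormone, was higher by 2.61 ± 0.38 (edgeR adjusted p = 2.53e-09), but 41 of its 82 UMIs lay in 1 cell and DESeq2 gave an adjusted p of 0.201. *Npff*, a precursor of RFamide peptides, was higher by 1.98 ± 0.58 (edgeR adjusted p = 0.0295) and was not called in 3 of the 6 fits that left out an embryo.

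Other peptides were nearly absent from control members. No *Oxt* UMI was found in 125 members against 2962 in other neurons, which puts oxytocin transcripts at least 31.4-fold lower when 3 UMIs over the group are taken as the floor. *Pmch*, which encodes melanin-concentrating hormone, had 1 UMI against 2842, a ratio of 90.3 with a counting interval of 16.2 to 3567.4. *Tac2*, the neurokinin B precursor, had 1 UMI against 408, a ratio of 13 (2.31 to 513), and *Hcrt*, the orexin precursor, had 1 against 306, a ratio of 9.72 (1.73 to 385). These transcripts lay in few cells. Of 4448 other neurons 60 held *Oxt* (1.35%), 76 *Pmch* (1.71%), 83 *Tac2* (1.87%) and 47 *Hcrt* (1.06%). A single cell held 1202 of the *Pmch* UMIs and another 211 of the *Hcrt* UMIs. At such shares 125 members can hold 0 or 1 positive cell by sampling of cells alone. The folds of these 4 genes are therefore not read as depletion. Of 33 neuropeptide genes tested, 7 were higher and 7 lower, with a median of 0.06, also with genes at 0 UMIs placed at their bound. Among 37 receptor genes for hormones and peptides 0 were higher and 1 was lower, namely the neurokinin receptor gene *Tacr3*, with 0 UMIs against 229 (at least 2.43-fold lower).

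Among transcription factors of hypothalamic and forebrain identity, 75 were tested, 3 were higher and 23 lower, with a median of -0.83 and of -0.74 with bounds. *Nkx2-1* (chr12:56531958-56536908, opposite *Gm26973*) ranged from 29.0 to 310 CPM in members, with a median of 186, and from 68.8 to 92.5 in other neurons. It was higher by 1.22 ± 0.19 (edgeR adjusted p = 2.46e-08) and was called under 17 of 17 alternatives. *Sox1*, a SoxB1 factor of neural progenitors and some neurons, was higher by 1.38 ± 0.24 (edgeR adjusted p = 2.44e-06). *Tcf4*, an E-protein gene, was higher by 0.62 ± 0.12 (edgeR adjusted p = 7.66e-05), although control embryo 2 reached 1583.8 CPM against 56.3 to 532 in the others, and without 1 embryo the edgeR adjusted p was 0.852. On the lower side, *Meis2*, a TALE homeodomain gene, ranged from 0 to 70.4 CPM in members and from 94.6 to 176 in other neurons, with no overlap. Its difference was -2.54 ± 0.28 (edgeR adjusted p = 3.88e-16), and 18 of its 22 UMIs in members lay in 1 cell. *Gbx2* had 0 UMIs against 624 (at least 6.61-fold lower) and *Irx5* had 3 against 532 (ratio 5.63, counting interval 1.92 to 27.4).

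Genes of neuronal differentiation moved in both directions, with 4 higher and 4 lower of 32 tested and a median of -0.19. Besides *Nhlh2* and *Insm1*, the higher genes were *St18*, a zinc-finger factor, at 1.36 ± 0.27 (edgeR adjusted p = 6.16e-05) and *Neurod1*, a proneural bHLH factor, at 1.3 ± 0.30 (edgeR adjusted p = 0.00122). The lower genes were *Ebf3* at -0.78, *Elavl2* at -0.72, *Dcx* at -0.54 and *Stmn1* at -0.42. *Dcx*, the microtubule-associated protein doublecortin of young neurons, did not overlap between members (435 to 1058.1 CPM) and other neurons (1099.7 to 1473.0). *Stmn1* was not called with library size alone (edgeR adjusted p = 0.109).

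Genes of GABA synthesis were lower in control members. *Gad1* ranged from 137 to 454 CPM in control members and from 341 to 509 in other neurons, a log2 difference of -0.82 ± 0.14 (edgeR adjusted p = 1.05e-06). *Gad2* was lower by a smaller margin, -0.67 ± 0.18 (edgeR adjusted p = 0.0139), and this was not called with library size alone (edgeR adjusted p = 0.0724). The share of cells with a UMI was not lower in the same way, at 59 of 125 members against 44.6% of other neurons for *Gad1* and 43 of 125 against 36% for *Gad2*, or 47.2% and 34.4% of members. *Slc6a3*, the dopamine transporter gene, had 1 UMI against 489 (ratio 15.5, counting interval 2.78 to 615). Only 46 of 4448 other neurons held *Slc6a3* (1.03%), and 1 UMI in 125 members is not read as depletion. In all, 12 transmitter genes were tested with 0 higher and 3 lower, and the median was -0.56, or -0.35 with bounds. By single cells, 57 of 125 control members held *Slc17a6*, the vesicular glutamate transporter gene, without *Slc32a1*, the vesicular GABA transporter gene. A further 30 held *Slc32a1* alone, 7 held both and 31 held neither. The corresponding shares were 45.6%, 24%, 5.60% and 24.8% in members and 40.6%, 25%, 5.01% and 29.3% in other neurons. Of the 30 control members with *Cck*, 18 held *Slc17a6* alone, 2 held *Slc32a1* alone, 22 held *Nkx2-1* and 0 held *Isl1*. Of the 15 control members with *Penk*, 7 held *Slc32a1* alone, 5 held *Slc17a6* alone and 3 held *Nkx2-1*.

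The other fixed groups gave fewer calls. Of 51 synapse genes 1 was higher and 6 were lower, with a median of -0.25. The higher gene was *Gabrq*, a GABA-A receptor subunit, at 1.36 ± 0.27 (edgeR adjusted p = 7.15e-05), which ranged from 42.2 to 137 CPM in members and from 24.8 to 42.2 in other neurons. Lower synapse genes included *Cplx1*, a complexin, at -2.19, *Grik3*, a kainate receptor subunit, at -1.42, *Syn3* at -0.73 and *Gabrb2* at -0.72. Of 45 axon guidance genes 2 were higher, *Efna5* and *Sema5a*, each at 0.81, and 2 were lower, *Robo2* at -1.36 ± 0.26 and *Epha10* with 3 UMIs against 592 (ratio 6.27, counting interval 2.13 to 30.5). Genes of cGMP signalling and of the phosphatases on which the *Ppp1r17* protein acts showed 0 higher and 1 lower of 46, with a median of -0.10, and the lower gene was *Ppp1r1a*, another inhibitor of protein phosphatase 1, at -0.55 ± 0.17 (edgeR adjusted p = 0.0381, or 0.176 with library size alone). Of 11 genes of Purkinje cells 0 were higher and 3 lower (median -0.67), among them *Dab1*, a Reelin-pathway adaptor, at -1.16, beside *Gad1* and *Gad2*. The PRC2 genes gave 0 calls among 10 (median 0.01), and of 4 cyclin-dependent kinase inhibitors *Cdkn1a* was lower at -1.57 ± 0.31 (edgeR adjusted p = 4.89e-05).

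The largest rises by fold outside the lists rested on few transcripts. *Fam19a4*, a secreted chemokine-like protein gene, had 26 UMIs in 11 of 125 members and 65 in 4448 other neurons, and was higher by 3.53 ± 0.53 (edgeR adjusted p = 9.41e-09). *Agtr1a*, an angiotensin receptor gene, had 14 UMIs in 8 members and was higher by 3.6 ± 0.63 (edgeR adjusted p = 2.80e-06). Both were called under 17 of 17 alternatives. The other 7 of the 10 largest rises, *Adamtsl2*, *Gm13710*, *Sprr2b*, *Pth2*, *Ddit4l*, *Csf2rb2* and *Cnga3*, had 4 to 15 UMIs in members, and each lost its call or could not be tested once the cell with most of its UMIs was left out. Among the 10 largest falls, each had 0 UMIs in members. Beside *Oxt*, *Gbx2* and *Tacr3* these were *Vgll2* (at least 5.74-fold lower), *Olig1* (at least 4.52-fold), *Mab21l1* (at least 3.97-fold), *Mfsd2a* (at least 3.22-fold), *Nid1* (at least 3.18-fold), *Sphkap* (at least 2.87-fold) and *Apod* (at least 2.79-fold). Of other neurons 1.28% held *Apod*, 1.35% *Oxt*, 1.69% *Olig1* and 1.75% *Nid1*, and 0 UMIs in 125 members is not read as their depletion. The shares were 2.63% for *Mfsd2a*, 3.08% for *Tacr3*, 3.62% for *Mab21l1*, 4.79% for *Gbx2* and 4.83% for *Sphkap*.

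In *Eed-cKO* the same comparison within 6 embryos called 164 of 13867 genes (1.18%), with 27 higher (0.195%) and 137 lower (0.988%), against a median over all genes of -0.24. With library size alone it called 40 higher and 59 lower. Of 32 differentiation genes 4 were higher: *Nhlh2*, *Neurod1* at 1.49 ± 0.31 (edgeR adjusted p = 3.39e-04), *Igfbpl1* at 0.96 ± 0.20 (edgeR adjusted p = 2.58e-04) and *Btg2*, an antiproliferative gene, at 0.89 ± 0.25 (edgeR adjusted p = 0.0336). *Ebf3* was lower at -1.72 ± 0.32 with no overlap between members (0 to 93.5 CPM) and other neurons (105 to 175). Of 75 identity factors 3 were higher and 16 lower, with a median of -0.43, or -0.30 with bounds. *Foxp1* (0 to 72.2 CPM in members, 165 to 212 in other neurons) and *Foxp2* (0 to 96.2 and 110 to 203), both forkhead factors, differed by -2.42 ± 0.32 and -2.56 ± 0.37 on the log2 scale, without overlap. *Nr4a2* had 0 UMIs against 886 (at least 7.75-fold lower, edgeR adjusted p = 5.80e-07). *Barhl1* had 2 UMIs against 655 (ratio 8.60, counting interval 2.37 to 71.1). The higher factors were *Prox1* at 2.10 ± 0.60 (edgeR adjusted p = 0.0394), *Nr2f1* at 0.87 ± 0.21 and *Lhx8* at 2.56 ± 0.51, the last with 33 UMIs in 4 cells.

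Peptides in *Eed-cKO* members were uneven between embryos. Of 33 tested, 4 were higher and 6 lower, with a median of -1.52, or 0.00 with bounds. *Grp* and *Crh* were higher, at 3.05 ± 0.50 (edgeR adjusted p = 9.85e-07) and 3.49 ± 0.65 (edgeR adjusted p = 4.00e-05), but their UMIs came from 4 and 2 cells. *Cartpt* was higher at 1.78 ± 0.26 (edgeR adjusted p = 1.79e-08), and was not called without 1 embryo (edgeR adjusted p = 0.150). *Pomc* was higher at 0.83 ± 0.23 (edgeR adjusted p = 0.0230), and was not called when its highest cell was left out (edgeR adjusted p = 0.654). *Penk* (3 UMIs against 673, ratio 5.89, counting interval 2.01 to 28.6), *Nts* at -2.61 ± 0.54, *Npy* at -2.01 ± 0.38 and *Pmch* with 0 UMIs against 345 (at least 3.02-fold) were lower. Only 13 of 2714 other neurons held *Pmch*, and 275 of the 345 UMIs lay in 1 cell. A count of 0 among 63 members is therefore not read as depletion of *Pmch*. Its call was lost in 4 of 6 fits that left out an embryo, and DESeq2 did not call it. Synapse genes gave 0 higher and 2 lower of 52 (median -0.35). *Syt4*, a synaptotagmin gene, was lower at -0.70, without overlap, and was called in each of the 6 fits that left out an embryo. *Th*, for the rate-limiting enzyme of dopamine synthesis, was higher at 2.01 ± 0.53 (edgeR adjusted p = 0.0164), with 21 UMIs in 5 of 63 cells, and was not called in 3 of 6 fits that left out an embryo. *Gad1* was lower at -0.68 ± 0.17 (edgeR adjusted p = 0.00877), but with library size alone it was not called (edgeR adjusted p = 0.191). Of the remaining lists, *Epha7* (-1.96) and the phosphodiesterase gene *Pde10a* (-1.68) were the only calls among 45 axon guidance and 45 cGMP and phosphatase genes, both lower, and *Pde10a* was not called with library size alone (edgeR adjusted p = 0.0658).

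The genotype comparison asked what differs between Ppp1r17 neurons of *Eed-cKO* and control embryos. By edgeR these cells held less *Cck*, *Penk*, *Cbln1* and *Nr4a2* and more *Cartpt*, *Igfbpl1* and *Onecut2* in *Eed-cKO*. Of these genes DESeq2 called only *Igfbpl1* and *Onecut2*. The *Penk* and *Nr4a2* calls were each lost in a fit that left out an embryo (highest edgeR adjusted p = 0.158 and 0.0555). *Penk* and *Cartpt* were not called by the robust edgeR fit (adjusted p = 0.451 and 0.198). With 6 embryos in each group, 39 of 9136 genes were called (0.427%), 22 higher (0.241%) and 17 lower (0.186%), against a median log2 difference of -0.06 over all genes. Scaling by library size alone called 26 higher and 14 lower, 36 of them among the 39. Sex was not balanced, since control embryos 1 and 4 and *Eed-cKO* embryos 3, 4, 6 and 7 were the females tested. With sex as a covariate 34 genes were called, 27 of them among the 39. DESeq2 called 9 genes, all among the 39, which were *Tal1*, *D930028M14Rik*, *Igfbpl1*, *Onecut2*, *Fosb*, *Fos*, *Rps13*, *Rps15a* and *Arl6ip1*. When the cell with most UMIs of each gene was left out, 22 of the 39 remained among 27 calls. Values per embryo did not overlap between the groups, by any margin, for 35 of the 9136 genes (0.383%).

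Of 19 neuropeptide genes tested, 2 were higher and 4 lower in *Eed-cKO* members, with a median of -1.16. *Cck* stood at 58.0, 288 and 535 CPM (lowest, median and highest of 6 embryos) in control members and at 0, 117 and 218 in *Eed-cKO* members. Control embryo 5 lay within the *Eed-cKO* range, and the other 5 control embryos lay above it, the nearest at 219 CPM. The difference was -1.69 ± 0.34 (edgeR adjusted p = 0.00150) and was kept in each of 12 fits that left out an embryo, but DESeq2 gave an adjusted p of 1.000. The 36 *Cck* UMIs in *Eed-cKO* came from 12 of 63 cells. *Penk*, the enkephalin precursor, stood at 0, 35.9 and 376 CPM in control and at 0, 0 and 22.6 in *Eed-cKO*. It had 111 UMIs against 3, a ratio of 17.4 (counting interval 5.80 to 85.6), with an edgeR adjusted p of 8.40e-04. Control embryo 1 alone held 376 CPM, and the highest adjusted p over fits that left out an embryo was 0.158. *Tac1*, the substance P precursor, stood at 5.22, 154 and 246 CPM in control and at 0, 34.6 and 70.9 in *Eed-cKO*, with control embryo 1 inside the *Eed-cKO* range (-1.89 ± 0.47, edgeR adjusted p = 0.0294). It was not called in 8 of 12 fits that left out an embryo. *Nts*, the neurotensin precursor, had 60 of its 113 control UMIs in 1 cell, and its difference of -3.04 ± 0.71 (edgeR adjusted p = 0.0167) was not called without that cell (edgeR adjusted p = 0.251).

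*Cartpt*, the precursor of CART peptide, was the peptide gene that rose most. It stood at 0, 6.25 and 26.1 CPM in control members and at 0, 139 and 599 in *Eed-cKO* members, with 3 *Eed-cKO* embryos far above control and 3 within the control range. The difference was 4.38 ± 0.55 (edgeR adjusted p = 3.15e-08), and the 97 UMIs came from 12 of 63 cells. It was called in 25 of 28 alternatives, but not by DESeq2 (adjusted p = 0.117). A *Cartpt* UMI was found in 12 of 65 *Eed-cKO* members against 37 of 529 non-neural cells (6.99%), at median depths of 5481 and 4419 UMIs. *Pomc*, the precursor of melanocortins and β-endorphin, was higher at 3.91 ± 0.64 (edgeR adjusted p = 3.11e-05), but its 131 UMIs lay in 5 cells of 2 embryos, and 59 of them in 1 cell. Without 1 of these embryos the adjusted p was 0.207 (edgeR).

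*Cbln1* (chr8:87468405-87472609), a secreted synapse organiser whose locus overlaps *Gm2694* on the opposite strand, stood at 0, 194 and 285 CPM in control and at 0, 41.0 and 70.9 in *Eed-cKO*. All control embryos except embryo 5 lay above the *Eed-cKO* range. The difference was -2.11 ± 0.40 (edgeR adjusted p = 9.25e-04), called in each of 12 fits that left out an embryo. *Nr4a2*, an orphan nuclear receptor that is also called Nurr1, had 40 UMIs in 10 control members and 0 in 63 *Eed-cKO* members, at least 6.27-fold lower (edgeR adjusted p = 0.0210). Control embryo 2 held 206 CPM while the others held 0 to 17.2, and without the cell with most *Nr4a2* UMIs the gene was not called (edgeR adjusted p = 0.106). *Slc6a15*, a neuronal amino acid transporter gene, did not overlap between groups (53.2 to 153 CPM and 0 to 46.2; -1.85 ± 0.48, edgeR adjusted p = 0.0467). The other falls of the 10 largest were *Slc35a1* at -2.13, *Epha5* at -1.90 and *Slitrk5* at -1.57, and each was not called in 7 or 8 of 12 fits that left out an embryo.

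*Igfbpl1* (chr4:45809468-45826923), a secreted protein gene of newborn neurons, stood at 50.8, 57.1 and 78.3 CPM in control members and at 42.5, 313 and 717 in *Eed-cKO*. 1 *Eed-cKO* embryo lay below all controls, and the other 5 lay above them. The difference was 2.32 ± 0.32 (edgeR adjusted p = 4.62e-07, DESeq2 adjusted p = 1.47e-05), with 121 UMIs in 31 of 63 cells. It was the only called gene of 24 differentiation genes (median 0.19). *Onecut2*, a cut-homeodomain factor, stood at 28.2, 38.5 and 68.7 CPM in control and at 73.8, 212 and 446 in *Eed-cKO*. The groups did not overlap, and the difference was 2.32 ± 0.34 (edgeR adjusted p = 1.98e-06, DESeq2 adjusted p = 1.47e-05). *D930028M14Rik*, a long noncoding RNA gene at chr7:25152457-25156627 that lies opposite *Pou2f2*, ranged from 0 to 15.7 CPM in control and from 24.6 to 113 in *Eed-cKO*, also without overlap (3.12 ± 0.62, edgeR adjusted p = 0.00131). The stranding of the counts was not stated, so that reads of *D930028M14Rik* and *Pou2f2* cannot be told apart. *Tal1*, a bHLH factor of midbrain and hindbrain GABAergic lineages, had 1 UMI in control and 19 in *Eed-cKO* members, a ratio of 40.4 (counting interval 6.42 to 1679.1, edgeR adjusted p = 0.00299), and was detected in 5 of 6 *Eed-cKO* embryos. Over all *Eed-cKO* members 11 of 65 held a *Tal1* UMI (16.9%), against 30.4% of other neurons and 89 of 529 non-neural cells (16.8%). The median depths were 5481, 4683 and 4419 UMIs. *Tal1* is also known from endothelial and blood lineages, and 12.2% of non-neural control cells held a UMI of it. The non-neural share can therefore be their own expression and is no measure of free *Tal1* RNA. Expression and free RNA cannot be told apart in members by it, and the member share is not read as expression.

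**Figure D3:**
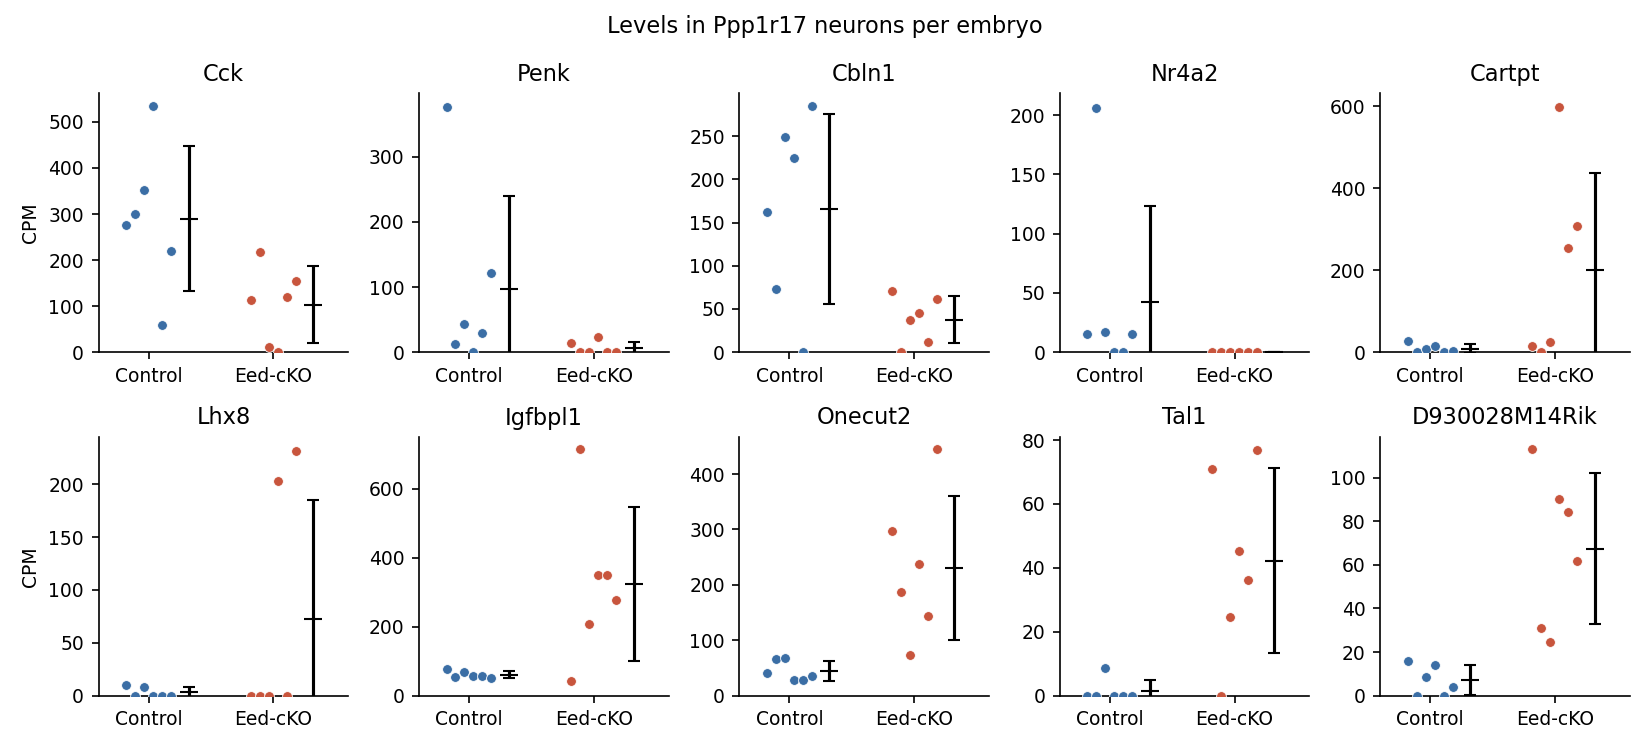
Levels of 10 genes (y axis, CPM, linear, each panel on its own scale) in Ppp1r17 neurons of 6 control and 6 *Eed-cKO* embryos (x axis). Points are embryos and bars give the mean ± SD, cut at 0; *Onecut2* and *D930028M14Rik* do not overlap between groups, whereas *Cck* (58.0 to 535 against 0 to 218 CPM), *Igfbpl1* and *Cartpt* do.

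Of 51 identity factors 3 were higher and 1 lower, with a median of -0.00. Beside *Onecut2* the higher factors were *Pou3f3*, a POU factor, at 1.80 ± 0.44 (edgeR adjusted p = 0.0264), which was not called in 5 of 12 fits that left out an embryo, and *Lhx8*, a LIM-homeodomain gene, with 3 UMIs in control and 33 in *Eed-cKO* (ratio 23.4, counting interval 7.34 to 119). The 33 *Lhx8* UMIs lay in 4 cells of 2 embryos, at 203 and 231 CPM, while the other 4 *Eed-cKO* embryos held 0. The other 4 of the 10 largest rises rested on few cells. *Hes5*, a Notch target of radial glia, had 18 of 32 *Eed-cKO* UMIs in 1 cell. *Slc1a3*, a glutamate transporter gene of radial glia and astrocytes, had 24 of 26 in 1 cell. *Ccnd1*, a G1 cyclin gene, had 22 UMIs in 9 cells, and *Crabp1*, a retinoic acid binding protein gene, had 22 in 6 cells. In other neurons of the same *Eed-cKO* embryos 16.4% of cells held *Ccnd1* and 12.3% held *Crabp1*. None of the 4 rises was called when its highest cell was left out, and *Slc1a3* and *Crabp1* then had too few UMIs to be tested.

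Markers of other cells were described by summed levels, which were not tested, and by calls of single genes. The summed level of 11 astrocyte and radial glia genes in members was 74.1, 119 and 214 CPM (lowest, median and highest embryo) in control, with 7 genes detected and *Gfap*, *Agt*, *Mlc1* and *Gjb6* at 0. In *Eed-cKO* members it was 121, 386 and 1110.1 CPM, with 9 genes detected and *Agt* and *Gjb6* at 0. In other neurons it was 325 and 468 CPM in the median embryo. Of 5 tested genes of this list 2 were higher in *Eed-cKO* members, *Hes5* and *Slc1a3* (median 1.85). The highest cell held 18 of 32 *Hes5* UMIs and 24 of 26 *Slc1a3* UMIs in *Eed-cKO* members. When the highest cell was left out, *Hes5* was not called (edgeR adjusted p = 0.140) and *Slc1a3* could not be tested. Genes of oligodendrocyte precursors, cycling cells, endothelial cells, pericytes, fibroblasts and microglia held at most 8 UMIs per list and group in members, none of them was tested, and the 4 pituitary genes in the table were at 0. Tanycyte and ependymal genes summed to a median of 74.5 CPM in control and 148 in *Eed-cKO*, with 0 calls of 2 tested (median 1.47). Immediate early and heat shock genes summed to 607, 925 and 1630.7 CPM in control and to 771, 1334.9 and 2238.6 in *Eed-cKO*. In other neurons of the same embryos the medians of this sum were 707 CPM in control and 1274.5 in *Eed-cKO*. Of 9 of these tested, *Fosb* (2.63 ± 0.46, edgeR adjusted p = 2.06e-04) and *Fos* (1.01 ± 0.22, edgeR adjusted p = 0.00668) were higher and 0 lower (median 0.81). Against other neurons of the same embryos, *Slc1a3*, *Hes5* and *Fabp7* were lower in control members (3 of 10 astrocyte genes) and *Fabp7*, *Vim*, *Col3a1* and *Col1a2* were lower in *Eed-cKO* members, while the stress genes had 0 calls of 10 in both. The part of these cell types and of stress genes in the differences above was not tested.

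The remaining groups gave few or no calls between genotypes. Synapse genes had 0 calls of 45 with a median of -0.37. Transmitter genes had 0 of 8 (median -0.16), receptors 0 of 11 (median -0.38), and cGMP and phosphatase genes 0 of 37 (median -0.10). Purkinje cell genes had 0 of 8 (median -0.16), PRC2 genes 0 of 8 (median -0.38), and cyclin-dependent kinase inhibitors 0 of 4 (median 0.54). Of 31 axon guidance genes only *Epha5*, an ephrin receptor gene, was called, as lower (median -0.11). Hindbrain GABAergic determinants had 1 gene tested and 0 calls. The 4 proposed markers had 0 calls, with log2 differences of 0.71 for *Nhlh2*, 1.11 for *Isl1*, 0.02 for *Insm1* and 0.58 for *Fndc9*. *Isl1* had an edgeR adjusted p of 0.0991, and of 0.00939 when its highest cell was left out.

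To test which of these genotype differences also differed from those in the other neurons of the same embryos, an interaction was fitted. It called 15 of 15025 genes (0.0998%), 7 in the positive (0.0466%) and 8 in the negative direction (0.0532%), against a median of -0.14. The number was 23 with library size alone, with 15 positive and 8 negative, and DESeq2 called 1 gene, which was none of these 15. *Cck* was the firmest by the range of alternatives, with an interaction of -2.66 ± 0.33 (edgeR adjusted p = 5.05e-12, called in 22 of 23 alternatives). Its median level went from 288 to 117 CPM in members and from 29.0 to 62.5 in other neurons. *Cbln1* (-2.02 ± 0.38, edgeR adjusted p = 2.22e-04) went from 194 to 41.0 CPM in members and from 171 to 163 in other neurons. *Tac1* (-2.34 ± 0.41, edgeR adjusted p = 4.46e-05) went from 154 to 34.6 CPM and from 92.1 to 153. *Penk* (-3.93 ± 0.69, edgeR adjusted p = 4.26e-05) went from 35.9 to 0 CPM in members and from 44.8 to 51.1 in other neurons, and its interaction was not called without 1 embryo. *Cartpt* (3.01 ± 0.55, edgeR adjusted p = 9.96e-05) rose from 22.6 to 55.8 CPM in other neurons and from 6.25 to 139 in members, and it too lost the call without 1 embryo. *Avp*, the vasopressin precursor gene, had the smallest p (2.66 ± 0.30, edgeR adjusted p = 6.03e-15), but 139 of its 156 *Eed-cKO* UMIs lay in 1 cell, and without it the adjusted p was 1. *Onecut2*, *Igfbpl1* and *Tal1* were not called in the interaction. Their median levels in other neurons went from 127 to 255, from 70.5 to 147 and from 4.25 to 111 CPM.

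Hox transcripts were detected in some *Eed-cKO* members and in 0 of 125 control members. At the limit of 3 counts, a count of 0 allows up to 2.40% of control members to hold a Hox UMI, and the exact 95% upper bound is 2.91%. In *Eed-cKO* the share was 0%, 20.2% and 33.3% in the lowest, median and highest of 6 embryos, or 18.2% ± 12.6 on average, a difference from control of 18.2 points (exact permutation p = 0.0152, adjusted over 5 shares 0.0758). Over all 65 *Eed-cKO* members, 12 held a Hox UMI, against 132 of 529 non-neural cells (25%), at median depths of 5481 and 4419 UMIs. With at least 2 Hox UMIs asked per cell, 8 of 65 *Eed-cKO* members passed (12.3%, exact binomial 95% interval 5.47% to 22.8%), against 80 of 529 non-neural cells (15.1%) and 0 of 125 control members. The difference between the genotypes over embryos was then 12.2 points (exact permutation p = 0.0152, adjusted over 5 shares 0.0758). At neither threshold did the member share exceed that of non-neural cells, and it is not read as expression. Among Hox genes *Hoxc13* alone reached the UMI minimum for the genotype test. All 20 of its UMIs lay in 5 *Eed-cKO* members of 3 embryos, so that this group alone brought it into the test. The gene was called by edgeR (at least 14.2-fold higher, edgeR adjusted p = 0.00131) but not by DESeq2. It was detected in 7.94% of the *Eed-cKO* members tested and in 14% of other neurons of the same embryos. Its share in non-neural cells is not given here, and the call is not read as expression in members. The share with a Hox UMI was lower in members than in other neurons. In the other neurons of the same 6 *Eed-cKO* embryos the share with a Hox UMI was 36.8%, 44.0% and 58.9% (lowest, median and highest), and members were lower in 6 of 6 embryos, by 27.1 points on average (-27.1; two-sided exact sign-flip permutation test, p = 0.0312, the smallest that 6 embryos allow). This comparison was chosen after the values were seen. After thinning to 2000 UMIs the difference was -18.3 points in 5 embryos (exact permutation p = 0.0625, the smallest that 5 allow). Of 29 Hox genes tested between members and other neurons in *Eed-cKO*, 2 were lower and 0 higher (median -1.85, or -1.13 with bounds): *Hoxa5* with 0 UMIs against 369 (at least 3.23-fold lower) and *Hoxc10* at -1.85 ± 0.48 (edgeR adjusted p = 0.0159), which was not called with library size alone (edgeR adjusted p = 0.0802). With *Tfap2b*-positive cells kept, the difference between members and other neurons was -31.2 points.

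**Figure D4:**
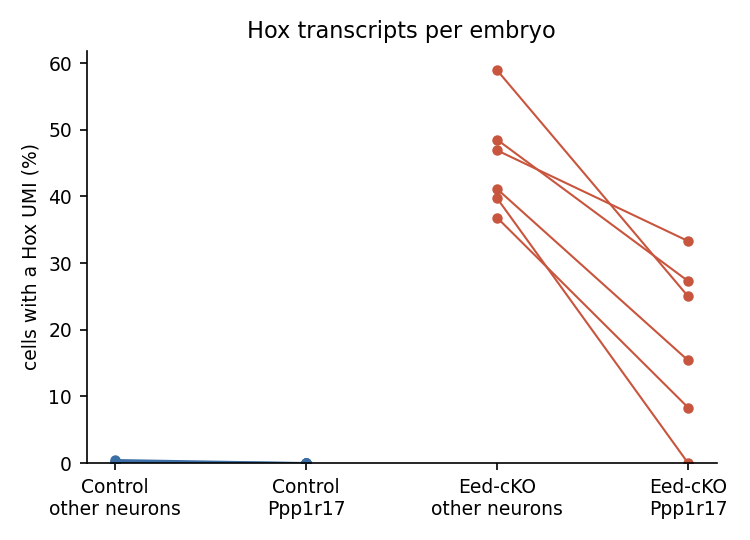
Share of cells with a UMI of any Hox gene (y axis, %) in other neurons and in Ppp1r17 neurons, for 6 control (blue) and 6 *Eed-cKO* (red) embryos. Each line joins both values of 1 embryo; the *Eed-cKO* lines go down from 36.8% to 58.9% in other neurons to 0% to 33.3% in Ppp1r17 neurons, against 25% in non-neural *Eed-cKO* cells (not drawn).

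Fast transmitter status per cell did not differ beyond the spread between embryos after adjustment over the 5 shares. *Slc17a6* was detected in 55.3% ± 12.0 of control and 60.8% ± 9.34 of *Eed-cKO* members (SD, n = 6 each), a difference of 5.53 points (exact permutation p = 0.377, adjusted 0.471). *Slc32a1* was detected in 0%, 31.2% and 45.2% of control members (lowest, median and highest embryo) and in 0%, 20.8% and 55.6% of *Eed-cKO* members, a difference in means of -2.75 points (exact permutation p = 0.799). Cells with both genes made up 3.99% ± 5.19 and 13.8% ± 11.3 (exact permutation p = 0.0671, adjusted 0.112). In single cells, 31 of 65 *Eed-cKO* members held *Slc17a6* alone, 7 held *Slc32a1* alone, 9 held both and 18 held neither. *Isl1* was detected in 9.09%, 18.4% and 33.3% of members (lowest, median and highest embryo) in control and in 16.7%, 48.1% and 72.7% in *Eed-cKO*. The mean rose from 21% ± 9.05 to 43.0% ± 20.6 (exact permutation p = 0.0390, adjusted 0.0974), which did not pass after adjustment. Detection in non-neural cells was 13.8% and 19.5% for *Slc17a6* and 7.52% and 11.2% for *Isl1*, in control and *Eed-cKO*.

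Across the 48 libraries, the gene whose level in neurons most resembled that of *Ppp1r17* was *Astn1*, a neuronal migration glycoprotein gene, with a Pearson correlation of 0.645 in log2(CPM + 1) over 13999 genes with at least 50 UMIs. It was followed by *Rlim* (0.627), *Smarca1* (0.608), *Klf6* (0.606), *Nol4*, *Cs* and *Rfk* (each 0.568), *Usp29* (0.563), *Phf14* and *Irf2bpl* (each 0.562). *Nhlh2* ranked 470th with 0.359, and *Nkx2-1* ranked 2888th with 0.165. Libraries of 1 embryo, the genotype and the depth are shared between these points, and the correlations are a description.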

How the data were processed

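The authors deposited 1 table of raw UMI counts per gene and cell (16510 genes, 14121 cells, 48 libraries). Per the labels and the study's methods, they made it from ddSEQ 3′ libraries with the SureCell pipeline, STAR 2.5.2b and SAMtools 1.3 on mm10, and removed cells with few UMIs or genes. The annotation and strand setting are not given in the sources used here. Gene positions are from GENCODE vM21 (GRCm38), which may not be the annotation counted.

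Members and gene lists were chosen with earlier results of these data known. Every column of cells was mapped to a sample. Counts were summed per embryo over members and over other neurons. Embryos with at least 5 members and genes with at least 15 UMIs, and at least 2 in 1 embryo, were tested with edgeR 4.0.16 (R 4.3.3): quasi-likelihood F tests, TMM scaling, Benjamini-Hochberg 0.05, with the embryo as a block within a genotype and in the interaction. Adjusted p-values are over all genes tested. Every fold is from the fitted model unless given as a ratio of summed UMIs. Levels are CPM of the summed counts. Shares were compared over embryos by two-sided exact permutation tests, adjusted over 5 shares. Exact binomial or Poisson intervals are at 95%, and a count of 0 is set to a floor of 3 UMIs over the group.

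Named genes were the 5 proposed markers, *Eed*, the 10 largest called rises and falls of the genotype and control comparisons, the 5 smallest p-values of the interaction, at most the 4 largest calls per direction of each of 24 lists, and the 10 genes most alike *Ppp1r17*. Other genes that are named as called (in DESeq2, among the flagged results or the further observations), and the genes of the cell-class counts, were chosen after their values were seen. Some genes that the rule names are not reported here.

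Alternatives were scaling by library size, DESeq2 1.42.0, limma 3.58.1 voom with TREAT at a log2 fold of 0.18, other UMI minima, filterByExpr, at least 3 UMIs of *Ppp1r17*, *Tfap2b*-positive cells kept, cells thinned to 2000 UMIs, sex as a covariate, libraries, or embryos that share a leading number in the library name, as samples, each embryo left out, and, chosen after seeing the data, the robust fit, the largest library left out, at least 2 Hox UMIs asked in non-neural cells, and the highest cell of each gene left out. No doublet caller was run, and the 6% of cells with the most UMIs per library were left out as an alternative. On simulated counts for the genotype comparison (8819 genes), 46%, 92%, 98% and 100% of genes changed 2-, 4-, 8- and 16-fold were called, and 4% of calls were false. For the control comparison (14026 genes) 32%, 84%, 90% and 84% were called and 2.68% of calls were false. The changed genes were drawn only from genes with clearly more UMIs than the minimum of the tests. The counts were simulated as sums and not as cells. These rates therefore do not cover genes with few UMIs or genes with most UMIs in 1 cell.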

Additional observations from a re-analysis of the deposited data

Results flagged for a closer look

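Of 70 groups of per-embryo levels in members, 13 held 1 embryo far from the others by Dixon's test at 95%. The test assumes normal values, and it flags by construction any group in which all embryos but 1 stand at 0. The count of 13 is therefore not set against a rate of chance. *Tal1* in control members rested on 1 UMI, and *Eed* in *Eed-cKO* members on 3 UMIs of 1 embryo. In control the far value was the highest embryo for *Grp* (366 CPM), *Penk* (376), *Nts* (352), *Nr4a2* (206), *Agtr1a* (145), *Pomc* (129), *Slc1a3* (20) and *Tal1* (8.58). In *Eed-cKO* it was the highest embryo for *Pomc* (1374.8 CPM), *Slc1a3* (301), *Crh* (180) and *Eed* (36.9), and the lowest for *Fos* (125). The highest *Penk* level was in control embryo 1, the highest *Nts* level in control embryo 6 and the highest *Nr4a2* level in control embryo 2, so that no single control embryo carried all 3.

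The genotype difference in Ppp1r17 neurons differed from that in other neurons of the same embryos for 15 genes by the interaction test. The negative values were -9.31 for *Nr4a2*, -3.93 for *Penk*, -3.09 for *Nts*, -2.66 for *Cck*, -2.34 for *Tac1*, -2.02 for *Cbln1*, -0.88 for *Peg10* and -0.80 for *Nap1l5*, on the log2 scale. The positive values were 1.2 for *Nfib*, 2.66 for *Avp*, 3.01 for *Cartpt*, 3.12 for *D930028M14Rik*, 4.26 for *Lhx8*, 8.42 for *Hhip* and 9.95 for *AI606473*. *AI606473*, *Hhip* and *Nr4a2* each had 0 UMIs in members of 1 genotype, so that their fitted sizes depend on the prior count and are not estimates of a fold. *AI606473* (chr3:154330821-154334254) lies next to *Lhx8* (chr3:154306294-154330659), and its 11 UMIs came from 3 cells of 2 embryos. *Nap1l5* and *Peg10*, both imprinted genes, were high in control members, with medians of 1587.9 and 753 CPM against 892 and 395 in other neurons. In *Eed-cKO* the medians were 1115.8 and 507 CPM in members and 957 and 456 in other neurons.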

How the results depend on the processing

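Members were few and shallow, so that calls depended on the tool and the rule. The genotype comparison called 39 genes, and 9 with DESeq2, 69 and 22 with minima of 5 and 30 UMIs, 6 with at least 3 UMIs of *Ppp1r17*, 14 after thinning, 7 with filterByExpr, 5 with TREAT and 19 with libraries as samples. At least 3 UMIs of *Ppp1r17* left only 4 control and 2 *Eed-cKO* embryos with enough members. Libraries as samples left 15 control and 3 *Eed-cKO* libraries. The control comparison called 372, and 145 with DESeq2, 132 with at least 3 UMIs, 158 after thinning and 222 to 366 without 1 embryo, the lowest without control embryo 1 and 230 without control embryo 3. The *Eed-cKO* comparison called 164, and 99 with library size alone, 28 with DESeq2, 38 with at least 3 UMIs and 103 to 144 without 1 embryo, the lowest without *Eed-cKO* embryo 4. The interaction called 15, and 23 with library size alone, 8 with the robust fit, 1 with DESeq2 and 3 after thinning.

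The share of neurons differed by -2.20 points with at least 1 UMI (exact permutation p = 0.0511), by -1.15 without exclusion genes, and by -1.58 to -0.974 without 1 embryo. The *Slc32a1* share turned to 1.07 points with at least 1 cell per embryo and ranged from -9.19 to 1.92 without 1 embryo. These ranges were 5.91 to 12.6 for both transporters, 16 to 27.2 for *Isl1* and 15.2 to 21.9 for Hox, all past the threshold only without *Eed-cKO* embryo 3. The Hox share passed after thinning (18.2 points, adjusted exact permutation p = 0.0108), where 5 *Eed-cKO* embryos still had enough members. *Eed-cKO* embryo 3, at 0% before thinning, was not among them, and the lowest of the 5 stood at 8.33%. Without that embryo the unthinned share had the same adjusted exact permutation p of 0.0108. Against other neurons it gave -18.3 after thinning and -29.8 to -24.6 without 1 embryo (exact permutation p = 0.0625, the smallest 5 embryos allow).

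Of the 44, 61, 36 and 20 named genes of the genotype, control, *Eed-cKO* and interaction comparisons, 15, 10, 8 and 8 alternatives turned the sign, and 303, 194, 139 and 69 lost the call, of 1206, 979, 575 and 460. The causes were not tested. With at least 3 UMIs of *Ppp1r17*, which left 4 control and 2 *Eed-cKO* embryos, the genotype difference was -0.56 for *Insm1*, -0.22 for *Nfia* and -0.50 for *Nfix*. The control difference was then -0.17 for *Fndc9* and 0.31 for *Eed*, and the *Eed-cKO* difference 0.33 for *Eed*, -7.24 for *Lhx8*, -8.76 for *Pomc* and 1.06 for *Fabp7*. The interaction was then -0.01 for *Nhlh2*, 0.00 for *Eed*, -0.11 for *Nfib*, -6.03 for *Lhx8* and -6.80 for *D930028M14Rik*. With libraries as samples, 15 in control and 3 in *Eed-cKO*, the genotype difference was -0.15 for *Nhlh2*, -0.78 for *Isl1* and -0.75 for *Insm1*. For *Insm1* it was -0.02 with 5 UMIs and -0.34 with TREAT. After thinning it was -0.03 for *Fndc9*, and the interaction 0.33 for *Eed*. DESeq2 gave -0.13 for *Lhx8* and -2.86 for *Pomc* in *Eed-cKO*. In control, leaving out the highest cell gave -3.12 for *Sprr2b*, -3.47 for *Pth2* and -0.01 for *Csf2rb2*, and leaving out the cells with most UMIs gave -3.14 for *Sprr2b* and -0.13 for *Csf2rb2*.

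Without 1 embryo, the genotype difference of *Insm1* ranged from -0.63 to 0.28. The control differences ranged from -0.04 to 0.50 for *Fndc9*, from -0.53 to 0.09 for *Eed* and from -3.91 to 3.18 for *Pth2*, and the *Eed-cKO* differences from -0.06 to 0.61 for *Isl1* and from -0.53 to 1.79 for *Pomc*. The interaction ranged from -0.05 to 0.71 for *Nhlh2* and from -1.82 to 4.88 for *Avp*. No paired analysis was possible because the numbers in the library names do not pair embryos of the groups. With 6 to 31 members per embryo, a gene at a few UMIs per embryo could not be resolved.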

Other observations

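*Nfib*, *Nfix* and *Nfia*, of the nuclear factor I genes, were called higher in *Eed-cKO* than in control members by edgeR and were chosen after their values were seen. *Nfib* stood at 29.0, 152 and 639 CPM (lowest, median and highest embryo) in control and at 298, 927 and 1527.0 in *Eed-cKO*, a log2 difference of 1.70 ± 0.26 (edgeR adjusted p = 3.61e-06). *Nfix* stood at 0, 117 and 279 CPM and at 172, 388 and 739 (1.56 ± 0.28, edgeR adjusted p = 3.61e-04). *Nfia* had medians of 51.2 and 230 CPM (1.31 ± 0.34, edgeR adjusted p = 0.0467) and was not called in 7 of 12 fits that left out an embryo. Only *Nfib* passed in the interaction (1.2 ± 0.20, edgeR adjusted p = 8.52e-06). DESeq2 called none of the 3, with adjusted p of 0.283, 0.346 and 0.852, and neither did the robust edgeR fit, with adjusted p of 0.356, 0.206 and 0.727. Nuclear factor I genes are known from late progenitors, glia and late-born neurons, and *Nfib* was detected in 53.9% of control and 60.3% of *Eed-cKO* non-neural cells, against 26.4% and 50.8% of members, at median depths of 4138, 4419, 5664 and 5481 UMIs. With at least 3 UMIs of *Ppp1r17* asked, which left 4 control and 2 *Eed-cKO* embryos, the differences of *Nfia* and *Nfix* turned to -0.22 and -0.50.

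*Rps13*, *Rps15a* and *Arl6ip1* were called lower in *Eed-cKO* members by both edgeR and DESeq2, and were chosen after their values were seen. *Rps13* (chr7:116331505-116334195), for a protein of the small ribosomal subunit, ranged from 546 to 662 CPM in control and from 158 to 249 in *Eed-cKO*, with no overlap (-1.54 ± 0.21, edgeR adjusted p = 4.62e-07). *Rps15a* (chr7:118104372-118116188), of the same subunit, ranged from 465 to 574 and from 205 to 323 CPM, with no overlap (-0.96 ± 0.20, edgeR adjusted p = 0.00473). *Arl6ip1* (chr7:118118891-118129662), for a protein of the endoplasmic reticulum, had medians of 543 and 202 CPM (-1.21 ± 0.22, edgeR adjusted p = 4.86e-04). In other neurons of the same embryos the medians went from 552 to 253 CPM for *Rps13*, from 461 to 271 for *Rps15a* and from 626 to 292 for *Arl6ip1*, and none of the 3 was called in the interaction.

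The other called genes were *Hddc3* (2.26 ± 0.50), *Ezr* (2.19 ± 0.52), *Reln* (1.75 ± 0.39) and the Polycomb Repressive Complex 1 gene *Bmi1* (1.17 ± 0.29), which were higher in *Eed-cKO* members, and *Pcdh9* (-1.53 ± 0.38), *Rprm* (-1.34 ± 0.31), *Vsnl1* (-1.32 ± 0.32) and *Grm5* (-1.28 ± 0.32), which were lower. DESeq2 called none of these 8.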
